A study of Mus musculus with 8 samples.

Results

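Laminin chains, integrin subunits and the linkers and proteoglycans of the basement membrane were described in the hearts of newborn mice. The members were chosen by their symbols, ignoring case: every symbol beginning with Itga or Itgb except the genes of the integrin binding proteins, every Lama, Lamb or Lamc symbol followed by a digit, and Nid1, Nid2, Hspg2 and Agrn. The rule gave 43 genes among 80155 loci, of which 39614 carried a gene symbol. They comprised 11 laminin chains, 4 linkers and proteoglycans, 18 integrin alpha subunits and 10 integrin beta subunits. Where several loci carried the same symbol, the locus with the highest mean level was used.

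The data were whole-heart RNA-seq of untreated male mice of the outbred Hsd:ICR(CD-1) stock, from which the atrial appendages had been removed. There were 4 hearts from postnatal day 1 (P1) and 4 hearts from postnatal day 7 (P7), each from a single mouse, and the labels name no transgene, deletion or treatment in either group. Cardiac muscle regrows after damage in newborn mice but not in week-old ones, and the comparison asks how the basement membrane and its receptors differed between these ages. Levels were FPKM, fragments per kilobase of transcript scaled to the mapped fragments of the library, which are given per unit of length and can be compared between genes.

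The basement membrane is a thin sheet of extracellular matrix that surrounds each cardiomyocyte, smooth muscle cell and peripheral nerve fibre and underlies the endothelium. Its laminins are trimers of an alpha, a beta and a gamma chain, which polymerise at the cell surface and are tied to a network of type IV collagen by nidogens and by the heparan sulphate proteoglycans perlecan and agrin. Cells hold on to laminin through dystroglycan and through integrins, which are dimers of an alpha and a beta subunit that link the matrix to actin. The alpha subunit largely sets the ligand, and the laminin-binding form that carries the alpha 7 subunit is the one best known from striated muscle.

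Of the 43 members, 35 reached 1 FPKM in at least 1 heart and were tested, 26 reached it in every heart, and 8 stayed below it in all 8 hearts. Those 8 were Lama1, Lama3, Lamc3, Itgal, Itgax, Itgb2, Itgb7 and Itgb2l. By the limma test on log2(FPKM + 1), 3 members were higher in P7, namely Itga7, Hspg2 and Itga10, and 0 were lower. A member was counted as changed where the Benjamini-Hochberg adjusted p over all 43172 tested loci was under 0.05 and the mean FPKM of the stages differed by at least 1.5-fold. Those 3 were 8.57% of the tested members, against 7.74% of the 17960 tested annotated loci called higher in P7 and 0.401% called lower. Over all tested loci, annotated or not, 3.45% were called higher and 0.371% lower.

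The share of members called was thus near the background. Without adjustment, 16 of the 35 members had a p under 0.05, or 45.7%, against 29.7% of the tested annotated loci. The median log2 fold change of the tested members was 0.44, with 27 above 0 and 8 below, against a median of 0.19 and 67.6% above 0 over the annotated loci. In 6 members every P7 heart lay above every P1 heart, which is 17.1% of those tested, against 17.3% of the annotated loci. Those 6 were Itga3, Itga5, Itga7, Itga10, Lamb3 and Hspg2, and in 0 of the tested members did every P7 heart lie below every P1 heart, against 2.69% of the annotated loci.

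**Figure D1:**
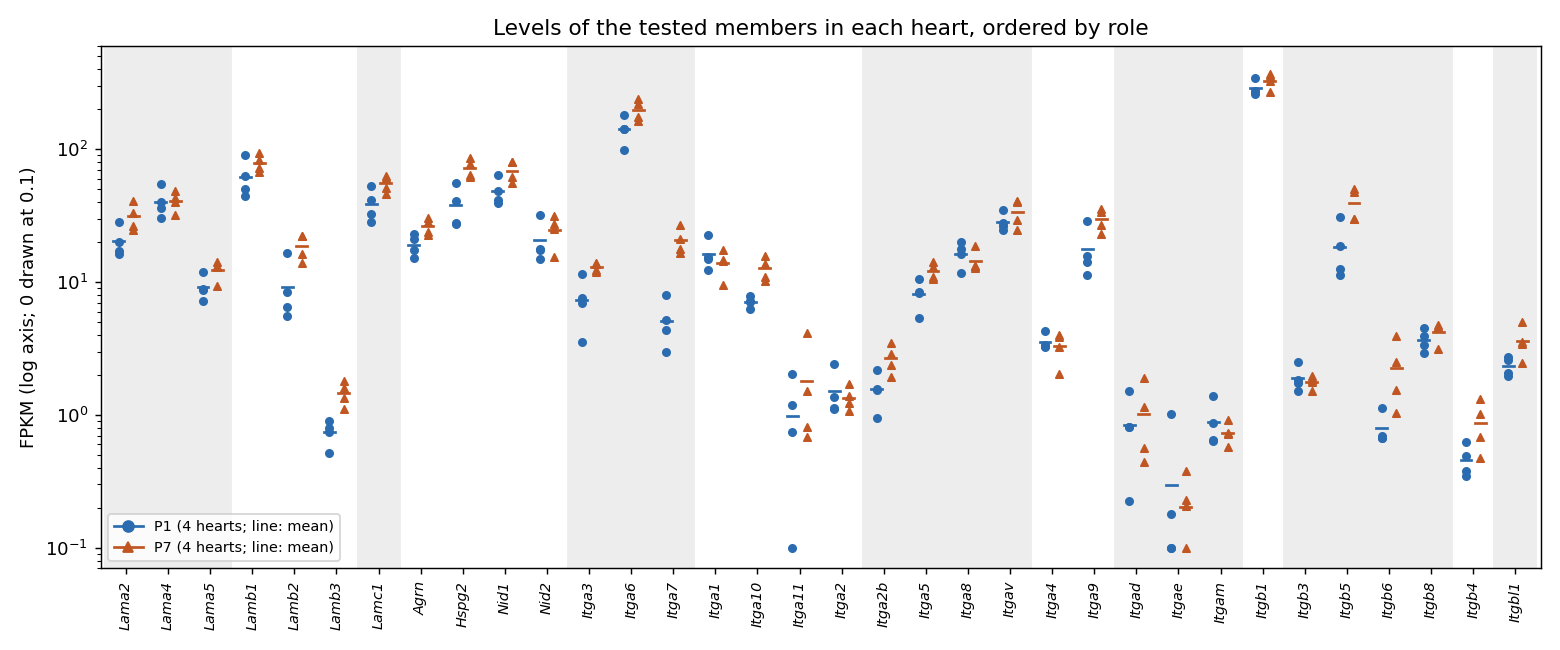
FPKM of 34 tested members in each heart, on a log axis, with circles for the 4 P1 hearts, triangles for the 4 P7 hearts and lines for the means; shading separates the roles. Itgb1 and Itga6 stand highest, the P7 triangles of Itga7, Hspg2 and Itga10 lie clear of the P1 circles, and the highest P1 circle reaches into the P7 range for most other members.

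The levels spanned from Itgb1, with a mean of 287 ± 37.2 FPKM (SD, n = 4) in P1 and 329 ± 44.8 in P7, to members near 0. Behind Itgb1 in order of the mean over all 8 hearts came Itga6, Lamb1, Nid1, Hspg2, Lamc1 and Lama4, at 170, 70.8, 58.8, 55.3, 47.2 and 40.8 FPKM respectively. Itga6 lay below Itgb1 and above Lamb1 in each of the 8 hearts. The levels of Nid1, Hspg2 and Lamc1 overlapped between hearts, so these neighbours were not separated beyond their spread.

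The hearts of a stage did not stand at the same height. P1 replicate 4 had the highest P1 value in 30 of the 35 tested members and P1 replicate 3 the lowest in 22. In P7, replicate 3 was the highest in 21 members and replicate 2 the lowest in 21. The summed FPKM of all 43 members was 873, 782, 722 and 1157 in the P1 hearts and 1321, 977, 1334 and 1076 in the P7 hearts, so that P1 replicate 4 lay above 2 of the P7 hearts. The same hearts were highest and lowest over the annotated loci with 1 FPKM or more in every heart: the median ratio of a heart to the geometric mean of all hearts was 1.16 in P1 replicate 4, against 0.779 to 0.950 in the other P1 hearts, and 0.929 to 1.30 in P7. Without P1 replicate 4, 8 members were called higher, namely the 3 above and Itga3, Itga9, Itgb5, Lama2 and Lamb2, and without any other heart only Itga7 was called. Without P1 replicate 4, 15.4% of the tested annotated loci were called higher, so the rise in calls was shared by the background. Without any other heart that share was 0.874% to 5.48%, against 7.74% with every heart. The drop to Itga7 alone was thus shared by the background as well. Depth, read from the spacing of low values at short loci, differed by up to 1.66-fold between hearts, and a single fragment on a 1 kb locus was worth 0.0410 to 0.0681 FPKM.

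Cell type markers moved with the stage as well. In P1 the summed FPKM of 5 fibroblast markers lay between 343 and 570 and in P7 between 812 and 982, with 4 of 5 called higher, and that of 5 leukocyte markers 15.7 to 21.2 and 34.0 to 46.6, with 1 called higher. The endothelial markers summed to 63.6 to 121 in P1 and 107 to 163 in P7, with Cdh5 and Tie1 called higher. The cardiomyocyte markers summed to 9092 to 17385 and 11374 to 19236, with 0 called, so the hearts carried the defining genes of heart muscle at both ages. Smooth muscle and pericyte markers summed to 292 to 604 and 241 to 368 with Pdgfrb called higher, but they moved in opposite directions. Acta2, the largest part of that sum, had means of 281 FPKM in P1 and 148 FPKM in P7. It was lower in every P7 heart but was not called. The means of Rgs5 (52.8 and 96.8 FPKM) and Myh11 (2.03 and 3.13 FPKM) were higher in P7, and those of Tagln were 34.6 and 33.7 FPKM. Of the platelet, Schwann cell and epicardial markers 0 were called. None of the lists had a marker at 0 in every heart, but Cd3e, Sox10, Gp9 and Treml1 stayed below 1 FPKM in all of them. Most of the leukocyte sum was Lyz2, the called marker, with means of 13.6 FPKM in P1 and 33.3 FPKM in P7. In bulk tissue a smaller number of cells of a type and less RNA per cell cannot be told apart, and the part of these cell types in the results below was not tested.

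Among the laminin-binding integrin alpha subunits, Itga7 rose the most of all 35 tested members. Itga7 (chr10:128933747-128960988, GRCm38) encodes the alpha 7 subunit, which pairs with beta 1 at the muscle cell membrane. It measured 5.19, 4.35, 2.98 and 8.02 FPKM in the P1 hearts and 21.2, 16.5, 26.9 and 17.7 FPKM in the P7 hearts. Every P7 heart stood far above the highest P1 heart. The mean level was 4.01-fold higher in P7, and the log2 fold change was 1.86 ± 0.25 (SE; limma, adjusted p = 0.00568). It was called under each of the 17 other ways of processing the values, with log2 fold changes from 1.23 to 2.06. An annotated gene on the opposite strand, Mettl7b, overlaps Itga7, and whether the counting used strand is not given in the sources used here.

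Itga6 encodes the laminin-binding alpha subunit of endothelium and epithelium and was the second most abundant member. It measured 142, 143, 98.5 and 181 FPKM in P1 and 239, 163, 218 and 174 FPKM in P7, and P1 replicate 4 lay above 2 of the P7 hearts. Its log2 fold change of 0.50 ± 0.23 did not pass the test (limma, adjusted p = 0.264). Itga3, whose subunit binds laminins that contain the alpha 5 chain, measured 6.98, 7.57, 3.55 and 11.5 FPKM in P1 and 14.0, 12.4, 13.7 and 11.8 FPKM in P7. The groups did not overlap, but the P1 hearts spread widely and the log2 fold change of 0.82 ± 0.26 did not pass (limma, adjusted p = 0.114).

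Ratios within a heart are not touched by a factor that scales all genes of that heart. So 7 ratios of related members were compared with a two-sided exact permutation test over the 8 hearts. Its smallest p at 4 against 4 is 0.0286. How often other pairs of genes reach that p was not tested. Where ratios are given after correction for the GC content of the transcripts, they were taken on log2(FPKM + 1) and not on FPKM. Their shifts thus also hold the effect of the added 1 FPKM. The Itga7 to Itga6 ratio was 0.0366, 0.0303, 0.0302 and 0.0444 in the P1 hearts and 0.0890, 0.101, 0.123 and 0.102 in the P7 hearts. No P7 heart came near the P1 range, the mean log2 ratio was higher by 1.56 in P7, and the exact p was 0.0286 (0.0333 after Benjamini-Hochberg adjustment over the 7 ratios). Against Itga5, the fibronectin receptor subunit, Itga7 went from a geometric mean ratio of 0.607 in P1 to 1.68 in P7, a log2 difference of 1.47 with the same exact p values. Itga7 was thus below Itga5 in all 4 P1 hearts and above it in all 4 P7 hearts. After GC correction the log2 difference was 0.89 for Itga7 to Itga6 and 1.29 for Itga7 to Itga5. Each then had an adjusted exact p of 0.05, which no longer passed. Of the summed FPKM of the 18 alpha subunits, Itga7 made up 1.93% ± 0.361 (SD, n = 4) in P1 and 5.69% ± 0.644 in P7, while the share of Itga6 was 54.6% ± 3.24 and 54.9% ± 2.50.

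**Figure D2:**
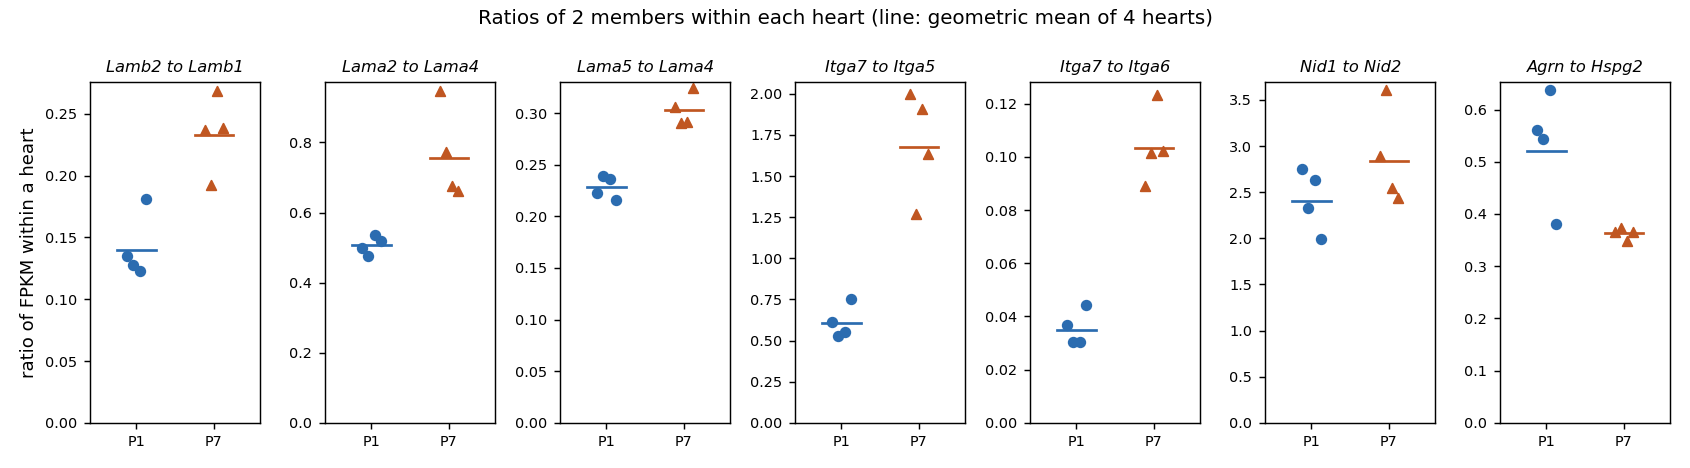
The 7 ratios of FPKM within each heart, with circles for P1, triangles for P7, lines for the geometric means and a vertical axis that starts at 0 in each panel. Lamb2 to Lamb1, Lama2 to Lama4, Lama5 to Lama4 and the Itga7 ratios are higher in every P7 heart, Agrn to Hspg2 is lower in every P7 heart, and Nid1 to Nid2 overlaps.

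Of the collagen-binding alpha subunits, Itga10 was called and Itga1 and Itga2 had estimates below 0. Itga10 encodes a subunit known from cartilage, and its locus carried more than 1 symbol, so the value may not be that of Itga10 alone. It measured 6.28, 7.85, 7.27 and 7.04 FPKM in P1 and 15.8, 10.99, 13.8 and 10.3 FPKM in P7. All P7 hearts lay above all P1 hearts, with a log2 fold change of 0.74 ± 0.19 (limma, adjusted p = 0.0477). That adjusted p lies just under the threshold, and 14 of the 17 other ways of processing moved it past 0.05. Itga1, whose subunit binds basement membrane collagen, measured 15.0, 15.5, 12.3 and 22.7 FPKM in P1 and 14.8, 9.46, 17.3 and 14.5 FPKM in P7. The stages overlapped (log2 fold change -0.21 ± 0.23, limma, adjusted p = 0.599). Itga2, the platelet and epithelial collagen receptor subunit, stood between 1.08 and 2.41 FPKM in all hearts.

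The alpha subunits that recognise the RGD motif of fibronectin and vitronectin did not pass the test in either direction, 0 of 4. Of the tested annotated loci, 7.74% were called higher and 0.401% lower. Itga5 measured 8.46, 8.25, 5.37 and 10.6 FPKM in P1 and 10.6, 13, 14.1 and 10.9 FPKM in P7. The lowest P7 heart and the highest P1 heart almost touched, and the log2 fold change was 0.54 ± 0.21 (limma, adjusted p = 0.193). Itgav, the alpha v subunit that pairs with several beta subunits, had means of 28.5 ± 4.43 and 33.8 ± 7.96 FPKM (SD, n = 4), and Itga8, the nephronectin receptor subunit, 16.4 ± 3.59 and 14.4 ± 2.79 FPKM. Both overlapped between the stages, with log2 fold changes of 0.22 ± 0.21 and -0.17 ± 0.21.

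Itga9, which binds tenascin and osteopontin, measured 15.8, 11.4, 14.3 and 29.0 FPKM in P1 and 22.9, 33.8, 35.5 and 26.9 FPKM in P7. P1 replicate 4 lay inside the P7 range and the other P1 hearts below it. The log2 fold change was 0.79 ± 0.26 (limma, adjusted p = 0.133). Itga4, the lymphocyte and epicardial fibronectin receptor subunit, was at 2.04 to 4.27 FPKM with a log2 fold change of -0.10 ± 0.20. The leukocyte alpha subunits were scarce: Itgad, Itgae and Itgam stood at or below 1.91 FPKM in every heart, and Itgal and Itgax below 1 FPKM. The loci of Itgad and Itgae are overlapped on the opposite strand by Cox6a2 and Haspin, and Itgae shares its symbol with 2 other loci, so these low values are uncertain. The beta partner of the leukocyte integrins, Itgb2, was at 0.222 to 0.563 FPKM, and Itgb7 at 0.0868 to 0.218 FPKM.

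Among the beta subunits 0 of the 7 tested members were called, beside 7.74% of the tested annotated loci called higher and 0.401% called lower. Itgb1, the common partner of most alpha subunits, measured 275, 261, 271 and 342 FPKM in P1 and 358, 268, 367 and 324 FPKM in P7. The stages overlapped, and the log2 fold change was 0.19 ± 0.20 (limma, adjusted p = 0.570). Itgb5, a partner of alpha v, measured 18.6, 11.4, 12.7 and 30.8 FPKM in P1 and 50.1, 29.8, 47.7 and 29.9 FPKM in P7. Apart from P1 replicate 4, which lay just above the 2 lower P7 hearts, the P1 hearts were all below the P7 hearts. The mean was 2.14-fold higher in P7, but the log2 fold change of 1.12 ± 0.30 did not pass (limma, adjusted p = 0.0590). Without P1 replicate 4 it was 1.40 with an adjusted p of 0.00922 by the same limma test. In that setting 15.4% of the annotated loci were called higher. Leaving out any other heart gave an adjusted p of 0.0628 to 0.183 by limma, and GC correction 0.221. Itgb5 was called in 4 of the 17 other ways of processing.

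Of the summed FPKM of the 10 beta subunits, Itgb1 held 91.3% ± 1.86 (SD, n = 4) in P1 and 86.3% ± 1.62 in P7, and Itgb5 held 5.63% ± 1.83 and 10.2% ± 1.63. These shares are descriptions and were not tested. The other partners of alpha v stayed low. Itgb8, which takes part in releasing active transforming growth factor beta, was at 2.92 to 4.78 FPKM and Itgb3, the platelet and osteoclast subunit, at 1.51 to 2.51 FPKM, with log2 fold changes of 0.17 ± 0.19 and -0.06 ± 0.18. Itgb4, the hemidesmosome partner of alpha 6, was at 0.346 to 1.31 FPKM, and Itgbl1, an integrin beta-like secreted protein, at 1.96 to 4.97 FPKM with a log2 fold change of 0.44 ± 0.20 (limma, adjusted p = 0.274). Itgb4 and Itga2b each have a further locus of the same symbol, and 5 loci carry the symbol Itga11, so the low values of these genes are uncertain. Further tested members, none of them called, were Itga2b at 0.947 to 3.48 FPKM, Itga11 at 0 to 4.15 FPKM and Itgb6 at 0.669 to 3.96 FPKM over the 8 hearts.

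**Figure D3:**
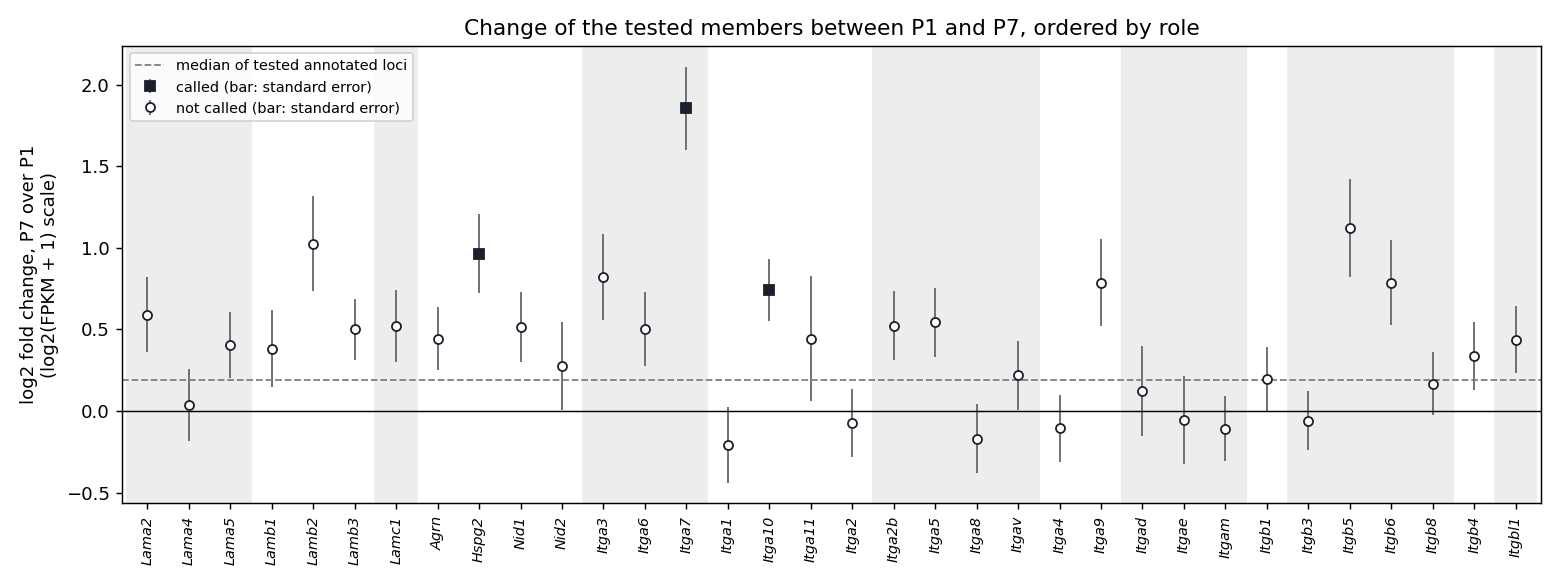
The log2 fold change of 34 tested members between P1 and P7 on the log2(FPKM + 1) scale, ordered by role, with bars for the standard error, filled squares for called members and a dashed line at the median of the tested annotated loci, 0.19. Itga7 stands apart at 1.86, Hspg2 and Itga10 are the other called members, and none of those drawn lies below -0.21.

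None of the 8 tested laminin chains was called in either direction, beside 7.74% of the tested annotated loci called higher and 0.401% called lower. With so few chains this count is a description and not a result about the chains. In the laminin alpha chains, Lama4 and Lama2 were the major members. Lama4, the chain of vascular and embryonic basement membranes, measured 40.1, 36.2, 30.4 and 55.1 FPKM in P1 and 43.2, 32.2, 48.8 and 39.9 FPKM in P7. The P7 hearts lay within the P1 range, and the log2 fold change was 0.04 ± 0.22 (limma, adjusted p = 0.928). Lama2, the chain of the muscle basement membrane whose loss causes congenital muscular dystrophy, measured 20.03, 17.3, 16.3 and 28.5 FPKM in P1 and 41.0, 24.8, 33.0 and 26.4 FPKM in P7. P1 replicate 4 lay above 2 of the P7 hearts, and the log2 fold change of 0.59 ± 0.23 did not pass (limma, adjusted p = 0.189).

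Within a heart the ratio of these chains separated the stages. The Lama2 to Lama4 ratio was 0.499, 0.476, 0.535 and 0.518 in P1 and 0.948, 0.772, 0.676 and 0.661 in P7. The P1 hearts lay within a narrow range and every P7 heart lay above it. The mean log2 ratio was 0.58 higher in P7 (exact permutation p = 0.0286, adjusted over the 7 ratios 0.0333). After GC correction the difference was 0.65, with an adjusted exact p of 0.05, which no longer passed. Of the summed laminin alpha chains, Lama4 went from 57.2% ± 0.83 (SD, n = 4) in P1 to 48.1% ± 2.92 in P7 by description, and Lama2 was 29.0% ± 1.06 and 36.4% ± 3.88. Lama5, the widely expressed chain of epithelial and mature vascular basement membranes, was at 7.20 to 11.9 FPKM in P1 and 9.35 to 14.2 FPKM in P7. Its log2 fold change was 0.41 ± 0.20 (limma, adjusted p = 0.306). The Lama5 to Lama4 ratio was higher in every P7 heart, with a log2 difference of 0.41 and the same exact p, but after correction for the GC content of the transcripts the difference was -0.09.

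The beta chains gave a similar picture. Lamb1, the main beta chain of embryonic and vascular laminins, measured 62.5, 50.7, 44.9 and 91.4 FPKM in P1 and 93.4, 72.1, 83.3 and 68.0 FPKM in P7. P1 replicate 4 lay near the top of the P7 range, and the log2 fold change was 0.38 ± 0.23 (limma, adjusted p = 0.390). Lamb2, the chain of the neuromuscular synapse, the kidney filter and mature vessels, measured 8.43, 6.45, 5.52 and 16.6 FPKM in P1 and 22.1, 13.9, 22.3 and 16.2 FPKM in P7. Apart from P1 replicate 4 the stages did not overlap, the mean was 2.02-fold higher in P7, and the log2 fold change of 1.03 ± 0.29 did not pass (limma, adjusted p = 0.0751). Without that heart it was 1.32, with an adjusted p of 0.00732 by the same limma test. In that setting 15.4% of the annotated loci were called higher. Leaving out any other heart gave an adjusted p of 0.0718 to 0.212 by limma, and GC correction 0.319. Lamb2 was called in 3 of the 17 other ways of processing.

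The Lamb2 to Lamb1 ratio was 0.135, 0.127, 0.123 and 0.181 in P1 and 0.237, 0.193, 0.268 and 0.239 in P7. P1 replicate 4 was again the nearest to P7, yet it stayed below every P7 heart. The mean log2 ratio was 0.73 higher in P7 (exact permutation p = 0.0286, adjusted over the 7 ratios 0.0333). After GC correction the difference was 0.34, with an adjusted exact p of 0.08, which no longer passed. Lamb3, a chain of epithelial anchoring filaments, was at 0.515 to 0.900 FPKM in P1 and 1.11 to 1.82 FPKM in P7, without overlap, and did not pass (log2 fold change 0.50 ± 0.19, limma, adjusted p = 0.172). Of the summed beta chains, Lamb1 made up 86.7% ± 1.88 (SD, n = 4) in P1 and 79.9% ± 2.07 in P7.

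The 2 major beta chains also differ in the base composition of their promoters. The windows below run from 250 bases before to 50 bases after the start of the RefSeq gene on GRCm38.p6, 5′ to 3′ on the strand of the gene, with capitals for the GC box, searched as GGGCGG on both strands. They are shown because the Lamb2 to Lamb1 ratio separated the stages. The windows are Lamb1 at chr12:31265043-31265342 and Lamb2 at chr9:108479612-108479911, both on the plus strand.
Lamb1: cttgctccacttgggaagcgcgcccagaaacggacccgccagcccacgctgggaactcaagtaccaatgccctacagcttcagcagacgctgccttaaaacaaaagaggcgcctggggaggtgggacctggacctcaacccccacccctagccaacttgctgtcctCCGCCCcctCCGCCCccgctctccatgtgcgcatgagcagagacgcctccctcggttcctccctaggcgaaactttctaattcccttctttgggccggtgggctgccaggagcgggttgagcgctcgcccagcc
Lamb2: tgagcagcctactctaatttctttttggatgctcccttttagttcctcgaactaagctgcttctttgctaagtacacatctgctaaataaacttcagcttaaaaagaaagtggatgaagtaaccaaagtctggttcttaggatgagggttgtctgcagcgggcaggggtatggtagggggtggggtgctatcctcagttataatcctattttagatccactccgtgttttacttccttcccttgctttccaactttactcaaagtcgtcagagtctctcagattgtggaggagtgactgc
The Lamb1 window holds 2 GC boxes and is 63.7% G and C, while the Lamb2 window holds 0 and is 44.0% G and C. A match of these letters is a description and not a site.

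Among the gamma chains, Lamc1, which is part of nearly all laminins of the heart, measured 41.6, 32.8, 28.4 and 53.3 FPKM in P1 and 60.6, 46.2, 63.4 and 51.2 FPKM in P7. P1 replicate 4 lay above 2 of the P7 hearts, and the log2 fold change was 0.52 ± 0.22 (limma, adjusted p = 0.234). Lamc1 made up 95.4% ± 0.687 (SD, n = 4) of the summed gamma chains in P1 and 97.4% ± 0.429 in P7.

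Of the 4 linkers and proteoglycans, Hspg2 was called higher in P7. Hspg2 (chr4:137468769-137570630) encodes perlecan, the large heparan sulphate proteoglycan that binds laminin, nidogen and growth factors. It measured 40.8, 27.9, 27.5 and 55.8 FPKM in P1 and 78.1, 63.9, 86.8 and 62.0 FPKM in P7. All P7 hearts lay above all P1 hearts, with P1 replicate 4 the nearest. The mean was 1.91-fold higher, and the log2 fold change was 0.96 ± 0.24 (limma, adjusted p = 0.0475). The call rested on the setting: 13 of the 17 other ways of processing moved the adjusted p past 0.05, among them the correction for GC content, under which the log2 fold change was 0.51 (limma, adjusted p = 0.325).

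Hspg2 had the most GC-rich transcript of the members, 60.9% G and C. Its promoter window, on the plus strand at chr4:137468553-137468852 and given in the same form, is shown because it is the promoter of a called member and is also rich in these letters.
Hspg2: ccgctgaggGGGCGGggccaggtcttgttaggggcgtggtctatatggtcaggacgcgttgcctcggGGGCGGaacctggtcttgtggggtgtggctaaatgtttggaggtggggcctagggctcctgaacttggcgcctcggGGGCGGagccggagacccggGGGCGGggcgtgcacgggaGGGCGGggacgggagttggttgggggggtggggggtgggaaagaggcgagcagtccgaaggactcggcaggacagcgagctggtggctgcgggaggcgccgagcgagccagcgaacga
It holds 5 GC boxes in 300 bases and is 70.3% G and C. Promoter windows were found for 28 of the 43 members, Itga7 not among them. Some genes have more than 1 start, so these members had 32 windows. A GC box was present in 17 of the 32 windows, or 53.1%, against 35.7% of all 32851 promoter windows in the table. The windows of the members had a median of 59.2% G and C, against 52.7% in all windows. The motif shares were not adjusted for this. The letters TATAAA, searched on both strands, were in 0 of the 32 and 13.6% of all windows, and the E-box CANNTG was in 25 of the 32 and 72.3% of all.

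The other linkers did not pass. Nid1, the nidogen that bridges laminin gamma 1 and type IV collagen, measured 48.2, 41.7, 39.6 and 64.2 FPKM in P1 and 79.8, 55.9, 79.8 and 61.4 FPKM in P7. P1 replicate 4 lay above 2 of the P7 hearts (log2 fold change 0.52 ± 0.21, limma, adjusted p = 0.222). Nid2, its homologue, was at 15.1 to 32.2 FPKM in P1 and 15.5 to 31.3 FPKM in P7 (log2 fold change 0.28 ± 0.27, limma, adjusted p = 0.550). The Nid1 to Nid2 ratio overlapped between the stages, with geometric means of 2.41 and 2.84 (exact permutation p = 0.229). After GC correction its log2 difference went from 0.24 to 0.49, with an adjusted exact p of 0.05.

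Agrn encodes agrin, which binds dystroglycan and organises the neuromuscular synapse. It measured 22.9, 15.1, 17.5 and 21.2 FPKM in P1 and 28.6, 23.9, 30.2 and 22.6 FPKM in P7. P1 replicate 1 lay just above the lowest P7 heart, and the log2 fold change was 0.44 ± 0.19 (limma, adjusted p = 0.245). The Agrn to Hspg2 ratio was 0.561, 0.543, 0.638 and 0.380 in P1 and 0.366, 0.374, 0.348 and 0.365 in P7. The P7 hearts were almost alike and all lower than P1, although P1 replicate 4 missed the P7 range by little. The difference of the mean log2 ratio was -0.52 (exact permutation p = 0.0286, adjusted over the 7 ratios 0.0333), and after GC correction -0.40 (adjusted exact p = 0.167), which no longer passed.

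**Figure D4:**
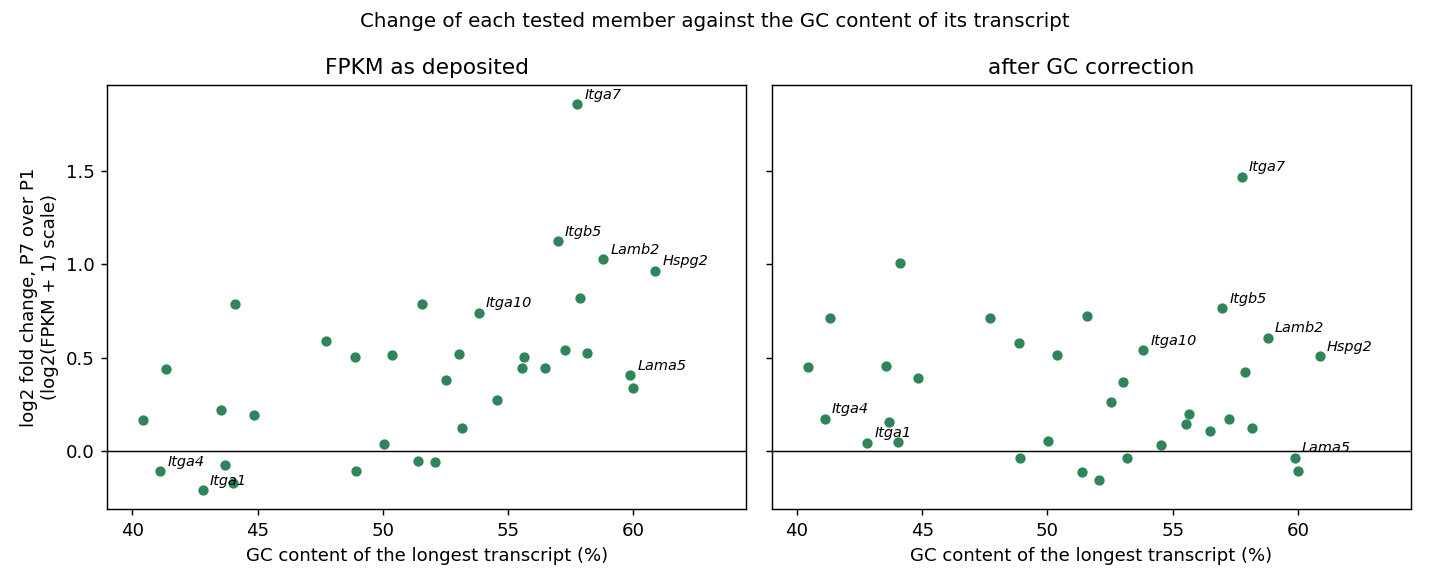
The log2 fold change of 34 tested members against transcript GC content in percent, with the values as deposited on the left and after the GC correction on the right. On the left the points climb from Itga4 and Itga1 at low GC to Lamb2 and Hspg2 at high GC, with a Spearman correlation of 0.55 over all 35; on the right it is -0.08 and Itga7 still stands highest.

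The changes moved with the base composition of the transcripts. Over the 35 tested members, whose longest transcripts are 40.4% to 60.9% G and C, the Spearman correlation of GC content with the log2 fold change was 0.55 and Pearson's r 0.52. Over the 15430 tested annotated loci with a known transcript the Spearman correlation was 0.53. These correlations are across genes of the same 8 libraries, which are not independent of each other. After a smooth trend on GC content was taken out of each heart, the Spearman correlation of the members was -0.08, their median log2 fold change was 0.20 against 0.22 for the annotated loci, and 1 member, Itga7, was called, beside 2.14% of the annotated loci called higher. Its log2 fold change was then 1.47 (limma, adjusted p = 0.0219). What part of the GC trend is technical was not tested.

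Scaling each heart by its median ratio instead moved the median of the annotated loci from 0.19 to -0.01, a shift of the whole scale. Under it 7.74% of the annotated loci were called higher and 4.08% lower. Of the members 4 were called higher, namely Hspg2, Itga7, Itgb5 and Lamb2, and 0 lower, and 23 of the 35 log2 fold changes were above 0 and 12 below. Relative to that scale, Itgb1, Itgav and Itgb8 changed from a positive to a negative estimate, -0.07, -0.04 and -0.04, and Lama4 to -0.22, none of which passed.

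The partners that carry the integrin signal inside the cell were listed as 20 genes, of which 19 were tested, 4 were called higher in P7, or 21.1% beside the background of 7.74%, and 0 lower. Their median log2 fold change was 0.30. The list was chosen with earlier results of these data known, so its share beside the background is a description and not a test. The 3 largest increases among the called genes were those of Pxn, Lims2 and Bcar1. Pxn encodes paxillin, an adaptor of focal adhesions, and measured 25.6, 21.3, 9.72 and 29.4 FPKM in P1 and 58.2, 75.4, 71.2 and 60.3 FPKM in P7. The P7 hearts lay well clear of the P1 hearts, with a log2 fold change of 1.68 ± 0.29 (limma, adjusted p = 0.0133). Lims2, a member of the complex of integrin-linked kinase, PINCH and parvin, and Bcar1, a docking protein phosphorylated at adhesions, had log2 fold changes of 1.41 ± 0.31 and 1.07 ± 0.24 (limma, adjusted p = 0.0283 and 0.0322), without overlap. The call of Lims2 was lost in 8 and that of Bcar1 in 10 of the 17 other ways of processing, GC correction among them, with adjusted p by limma of up to 0.115 and 0.273, while Pxn was called in all 17. The other called gene was Tns1. Of the complex of integrin-linked kinase, PINCH and parvin, the listed genes other than Lims2 were not called. Ilk had a log2 fold change of 0.30, Lims1 -0.13, Parva 0.11, Parvb 0.76 (limma, adjusted p = 0.221) and Parvg 0.23. The talins Tln1 and Tln2, also not called, had 0.14 and 0.10. These genes were named after their values were seen.

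The other genes of the basement membrane formed a list of 19, of which 18 were tested, 9 were called higher in P7 and 0 lower, or 50% of those tested beside the background of 7.74%. Their median log2 fold change was 0.90. This list too was chosen with earlier results of these data known, so its share beside the background is a description and not a test. Col4a1 and Col4a2 encode the chains of the common type IV collagen. Col4a2 measured 180, 121, 58.4 and 324 FPKM in P1 and 536, 365, 647 and 439 FPKM in P7, and Col4a1 156, 118, 70.02 and 220 FPKM in P1 and 404, 294, 502 and 339 FPKM in P7. All P7 hearts lay above all P1 hearts for both, with log2 fold changes of 1.76 ± 0.41 and 1.53 ± 0.32 (limma, adjusted p = 0.0370 and 0.0233). The call of Col4a2 was lost in 10 and that of Col4a1 in 8 of the 17 other ways of processing, GC correction among them, where the adjusted p by limma reached 0.149 and 0.0943. Col15a1, a collagen of the outer face of muscle and vessel basement membranes, had 1.66 ± 0.26 (limma, adjusted p = 0.00851) and was called in all 17. Col4a4, Col4a5, Dag1, Fbln1, Smoc2 and Sparc were the other called genes. Of the 5 fibroblast markers 4, and of the 5 endothelial markers 2, were called higher over the same days, and their part in these levels was not tested.

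**Figure D5:**
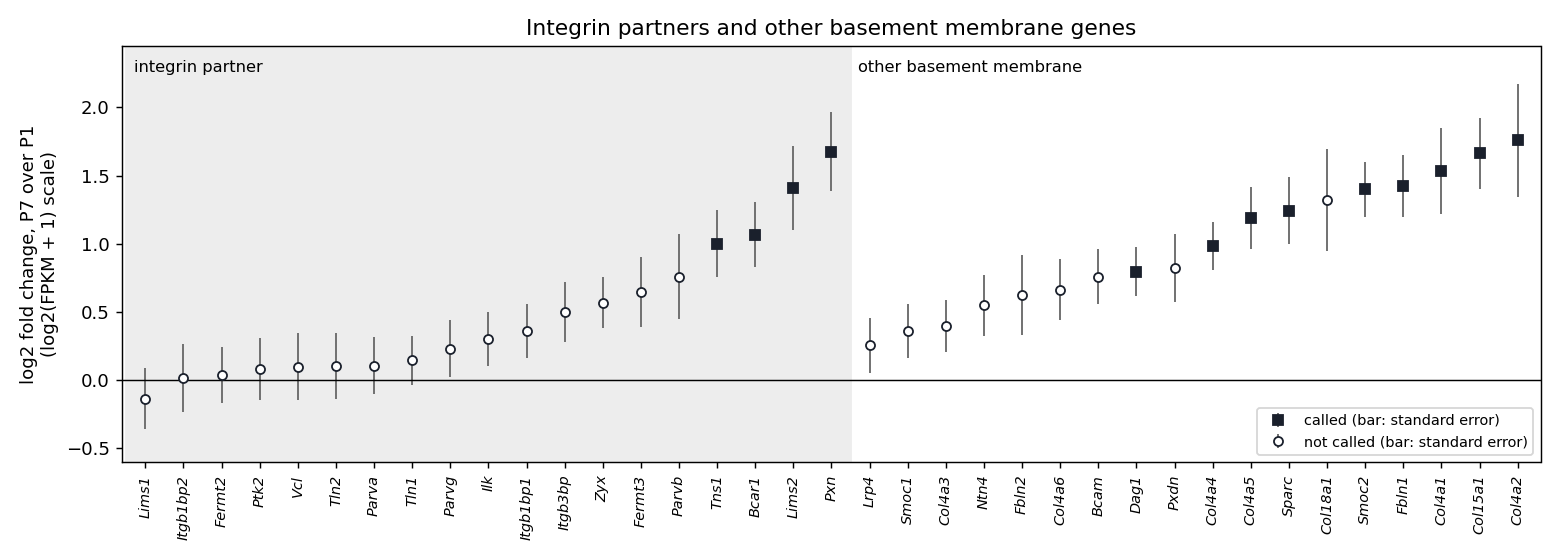
The log2 fold change of the 19 tested integrin partners on the left and the 18 tested other basement membrane genes on the right, in order of size, with bars for the standard error and filled squares for called genes. Called genes number 4 on the left, up to 1.68 for Pxn, and 9 on the right, up to 1.76 for Col4a2, and only Lims1 lies below 0.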

How the data were processed

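Per the labels and the study's methods, total RNA of each heart was depleted of ribosomal RNA and made into libraries with the ScriptSeq v2 Complete kit. The libraries were sequenced in pairs. A service provider mapped the reads to GRCm38 and summed them over loci, with Ensembl as the annotation reference. Many of these loci carry no gene symbol. The aligner, and whether counting used strand, are not given in the sources used here. The authors deposited FPKM values per locus for each heart, on which everything here rests; no read counts were used.

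FPKM values were tested with limma 3.58.1 in R 4.3.3 (lmFit, and eBayes with a trend) on log2(FPKM + 1), over the 43172 loci that reached 1 FPKM in any heart. The pseudocount of 1 understates fold changes of low genes. All p-values were adjusted over these loci. GC content was that of the longest GENCODE M21 transcript, matched for 43 of 43 members and 85.9% of the tested annotated loci, and was taken out of each heart with a lowess of span 0.3. Ratios and descriptions used scipy 1.17.1, numpy 2.4.6 and pandas 2.3.3 in Python 3.11.15.

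The members and lists were chosen with earlier results of these data known. Genes named in the text are all called members, the 3 most abundant members of each role with at least 1 FPKM, the members of the ratios, and the 3 largest called changes of each further list; exceptions are stated. The values of 1 tested member are not reported here, although it is part of the counts. Symbols with several loci were represented by the locus of the highest mean. The limma steps were tested on simulated data. The alternatives tried were another pseudocount, other filters, scaling, a replicate block, GC correction, no trend, and each heart left out; scaling together with GC correction was chosen after seeing the data. Positions are those of the files on GRCm38, counted from 1, and the promoter sequences are from RefSeq.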

Additional observations from a re-analysis of the deposited data

Results flagged for a closer look

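Over 27 named members and the 7 ratios, a single heart lay far from the others in 3 of 68 groups of 4 hearts by Dixon's test, where the gap to the nearest heart divided by the range of the group exceeded the critical value for 4 values. Chance gives about 1 in 20 such groups, or 3.4 of 68. P1 replicate 4 was the high heart in 2 of them. For Itga4 it was at 4.27 FPKM against 3.23 to 3.39 in the other P1 hearts, with a gap of 0.849 of the range. For Nid2 it was at 32.2 against 15.1 to 17.9 FPKM, with a gap of 0.835. P7 replicate 1 was the high heart for Itga8, at 18.6 against 12.7 to 13.3 FPKM in the other P7 hearts, with a gap of 0.903. None of these 3 genes was called in any setting, and the cause was not tested.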

How the results depend on the processing

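Itga7 was called under every alternative. The number of members called higher was 3, and moved to 1 without a filter, with GC correction, with the replicate block and GC correction, with scaling and GC correction, and without the eBayes trend; it was 7 with 1 FPKM required in every heart, where fewer loci were tested, and 4 with scaling. The share of annotated loci called higher was 19.0% with 1 FPKM required in every heart, against 7.74%, so that rise was shared by the background. With the replicate block the number of members was 2, Itga7 and Itgb5, beside 5.4% of the annotated loci. Hspg2 then had an adjusted p of 0.0608 by limma. Leaving out a heart gave 1 to 8. The number was 1 without each heart except P1 replicate 4, which gave 8. The share of annotated loci called higher was 15.4% without P1 replicate 4 and 0.874% to 5.48% without any other heart. Without P1 replicate 4, 3379 loci were called in all, against 1650 with every heart and 199 without P1 replicate 2. No member was called lower in any setting. The replicate numbers did not pair the hearts: deviations of hearts with the same number correlated at 0.06, 0.22, -0.28 and -0.12.

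By role, the filter on every heart gave 1 call each for alpha 4 and alpha 9, the beta partners of alpha v and the laminin beta chains, and 2 for the laminin-binding alpha subunits; scaling gave 1 for the beta partners and the beta chains, and the block 1 for the beta partners. Without P1 replicate 4 the laminin alpha chains, beta chains, beta partners of alpha v and alpha 4 and alpha 9 had 1 call each and the laminin-binding alpha subunits 2. Of the annotated loci, 19.0% were called higher with the filter on every heart and 15.4% without P1 replicate 4. The single calls of the collagen-binding alpha subunits and of the linkers went to 0 in most settings, including no filter, the block, GC correction and no trend, and also in 7 of the 8 fits that left out a heart; scaling removed only that of the collagen-binding subunits. Calls of integrin partners went from 4 to 1 without a filter and with GC correction in each of its 3 forms, and ranged from 1 to 5 when a heart was left out. Over the annotated loci the share called higher fell as well, from 7.74% to 1.85% without a filter and to 2.14% with GC correction. With a heart left out that share ranged from 0.874% to 15.4%. These moves were thus shared by the background. Calls of other basement membrane genes went from 9 to 4 with the block and GC correction, beside 1.93% of the annotated loci called higher. They ranged from 3 to 14 when a heart was left out, beside the same 0.874% to 15.4%. The median log2 fold change of the members went from 0.44 to 0.20 with GC correction, with or without the block, and to 0.0219 with scaling and GC correction. The cause was not tested.

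Directions changed for 14 of the 33 named genes, none of which was called; 7 did so only under settings with scaling, which moved the median of all annotated loci from 0.19 to -0.01. With GC correction, with or without the block, the log2 fold change was 0.0454 for Itga1, 0.16 for Itga2, 0.17 for Itga4, 0.0522 for Itga8 and -0.0343 for Lama5. With scaling it was -0.0363 for Itgav, -0.0691 for Itgb1, -0.0428 for Itgb8 and -0.22 for Lama4. With scaling and GC correction it was -0.15 for Agrn, 0.0219 for Itga2, -0.0673 for Itga5, -0.20 for Lama4, -0.28 for Lama5, -0.0031 for Lamb1 and -0.23 for Nid2. Leaving out a heart ranged from -0.14 to 0.0865 for Itga2, -0.19 to 0.0524 for Itga4, -0.12 to 0.0369 for Itgb3 and -0.0855 to 0.19 for Lama4.

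Of the ratios, GC correction moved Lamb2 to Lamb1 to a log2 difference of 0.34 (adjusted exact p = 0.0800), Agrn to Hspg2 to -0.40 (0.167) and Lama5 to Lama4 to -0.0909 (0.286). Lama2 to Lama4, Itga7 to Itga5 and Itga7 to Itga6 were 0.65, 1.29 and 0.89, each with an adjusted exact p of 0.05, which no longer lies under the threshold since fewer of the 7 ratios reached the smallest p. Nid1 to Nid2 went the other way, from 0.24 to 0.49 (0.229 to 0.05). These GC-corrected ratios were taken on log2(FPKM + 1) and the main ratios on FPKM. Each shift thus holds the effect of the added 1 FPKM as well as that of GC content. With a heart left out the ratios were values with no test, and each kept its direction. No read counts were used, so the counting error of low members is not known.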
